A study of Mus musculus with 6 samples.

Results

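The clustered replication-dependent histone genes were taken as every row of the expression table whose gene symbol starts with Hist1h, Hist2h, Hist3h or Hist4h. The rule found 68 of 23049 rows. It used symbols only, so no expression value entered the choice. By their symbols the 68 genes comprised 6 for the linker histone H1, 19 for H2A, 18 for H2B, 12 for H3 and 13 for H4. In GRCm38 coordinates 55 of them lay on chromosome 13, 10 on chromosome 3, 2 on chromosome 11 and 1 on chromosome 6.

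Each library came from macrophages sorted by flow cytometry as cells carrying F4/80, a surface protein of mouse macrophages encoded by Emr1, out of the corpus (the acid-secreting main body) of the mouse stomach. The animals had received DMP-777 in 3 libraries and L635 in the other 3. Both agents kill the acid-secreting parietal cells, and L635 is an analog of DMP-777 that lacks its inhibition of neutrophil elastase. By the design text, DMP-777 was given to produce spasmolytic polypeptide-expressing metaplasia (SPEM), in which corpus glands take on a mucous phenotype, and L635 to produce SPEM with intestinal features. The strain and age of the mice, the dose and the treatment time were not used here, being absent from the labels, and no untreated animals were analysed here. Replicates were numbered within each treatment, and nothing states that they came from separate animals, so a p-value here reflects only how far these libraries vary, whether from animals or from handling.

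The core histones H2A, H2B, H3 and H4 form the protein spool on which DNA is wound, and H1 binds where the DNA enters and leaves it. A cell in S phase makes them in bulk from clustered, mostly intronless genes whose messenger RNA ends in a conserved stem-loop in place of a poly(A) tail. Binding of the stem-loop by SLBP, and cleavage behind it by a complex that contains the U7 small nuclear RNA and Lsm10, give this end. Several clustered genes, among them Hist1h1c, Hist1h2bc and Hist2h2be, are known to give polyadenylated messenger RNA as well, in cells that have stopped dividing. The libraries were amplified with a kit that primes with both oligo(dT) and random primers, so RNA of either kind can enter, though not necessarily with equal efficiency.

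The values were taken as RPKM, a read count divided by gene length and by library depth, a unit recognised here from steps in the values. The lowest value in every library is 1, a floor that stands for any level at or below it. The spacing of low values gave estimated depths of 6900000, 5700000 and 10500000 reads for DMP-777 replicates 1 to 3 and of 8700000, 4300000 and 20900000 reads for L635 replicates 1 to 3. Only 20.3% to 29.9% of the low values used lay close to a whole number of reads, so these depths are uncertain. By these estimates, 1 RPKM of a short histone gene, Hist1h2bl of 381 bases, corresponds to 1.6 reads in the shallowest library and 8 in the deepest, so low values rest on few reads. Genes above the floor numbered 12087 ± 776 with DMP-777 and 11926 ± 381 with L635 (SD, n = 3), with an exact two-sided permutation p = 0.9, and p = 0.7 for estimated depth, where 0.1 is the smallest p that 3 against 3 allows. All 13 macrophage markers were above the floor, and their summed level was 1597 to 2794 RPKM with DMP-777 and 1393 to 2760 RPKM with L635. RNA of surface mucous cells was also present: all 6 of their markers, led by Tff1 and Gkn2, were above the floor, with sums of 4452 to 11799 RPKM with DMP-777 and 2607 to 3063 RPKM with L635, ranges that did not overlap. Parietal cell markers summed to 399 to 1107 RPKM with DMP-777 and 164 to 771 RPKM with L635, with Slc26a7 at the floor. Sums for T cells were 14.3 to 23.5 and 0 to 65.3 RPKM in that order of treatments, with Cd3g and Lck at the floor throughout. The highest of them, in L635 replicate 1, was mostly Cd4 at 53.2 RPKM. Sums for neutrophils were 137 to 314 and 133 to 489 RPKM, with Ly6g, Mpo and Elane at the floor. Most of each neutrophil sum was Retnlg, at 79.5 to 471.3 RPKM. S100a8 reached at most 26.6 and S100a9 at most 7.63 RPKM. Sums for eosinophils were 9.87 to 35.4 RPKM with DMP-777 and 11 to 159 RPKM with L635, the highest in L635 replicate 2, with Epx at the floor. General epithelial markers summed to 811 to 1236 RPKM with DMP-777 and 652 to 887 RPKM with L635, and all 7 tested had a lower mean with L635. These are bulk libraries, in which fewer cells of a type and less RNA per cell cannot be told apart.

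Many of these genes have close copies, which bears on what short reads can assign, so their sequences are shown first. A perfect stem of 6 base pairs starting with GG, closed by a loop of 4 bases starting with T, was searched in GENCODE M21 transcripts. It was found after the stop codon of 45 of the 68 genes, and anywhere in a protein-coding transcript in 46 of them, against 461 of 21901 protein-coding genes, or 2.1%. Every stem in an H1, H2A, H2B or H3 gene had the same letters on its first strand, GGCTCT, in 4, 11, 9 and 9 genes. The H4 genes differed, with GGCCCT in 10 and GGTCCT in 2. The lines below give the element for genes whose values are described later, 5′ to 3′ from the GRCm38 transcripts, with the stem in capitals and the loop and flanks in lower case.
Hist1h1c: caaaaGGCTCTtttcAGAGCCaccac
Hist1h1e: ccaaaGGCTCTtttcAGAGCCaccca
Hist1h2bj: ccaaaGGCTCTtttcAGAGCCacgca
Hist1h2bm: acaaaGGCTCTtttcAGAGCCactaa
Hist3h2a: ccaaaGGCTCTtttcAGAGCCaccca
Hist2h3c1: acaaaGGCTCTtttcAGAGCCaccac
Hist1h4d: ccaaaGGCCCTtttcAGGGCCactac
Hist1h4i: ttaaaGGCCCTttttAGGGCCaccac
Hist4h4: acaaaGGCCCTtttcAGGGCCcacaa
No such element followed the stop codon in the annotated transcripts of Hist1h2bc, Hist2h2be or Hist1h1a, which says only that these letters are not in those transcript models. The models of 12 of the 68 genes end at the stop codon.

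Near-identical copies were the rule. The 67 genes with an open reading frame encode 31 different predicted proteins, taking the longest frame of each. For Hist2h3c1 and Hist2h3c2 this frame was 546 bases against 411 in the other H3 genes, so 31 may be too many. All 13 H4 genes encode the same protein, and 9 of the H2A genes share another. To show how far copies differ, the first 60 coding bases of 4 H2A genes of that group are set beside Hist1h2ak, an H2A gene of another predicted protein, with differences from Hist1h2an in capitals.
Hist1h2an: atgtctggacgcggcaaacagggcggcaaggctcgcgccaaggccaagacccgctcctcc
Hist1h2ai: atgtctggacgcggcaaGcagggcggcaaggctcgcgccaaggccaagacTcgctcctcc
Hist1h2ao: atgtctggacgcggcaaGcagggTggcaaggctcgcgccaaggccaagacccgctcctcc
Hist1h2ap: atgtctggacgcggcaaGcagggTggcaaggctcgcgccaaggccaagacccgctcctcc
Hist1h2ak: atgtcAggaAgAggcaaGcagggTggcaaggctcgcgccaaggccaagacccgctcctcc
Over the whole coding part of 393 bases, Hist1h2ai differed from Hist1h2an at 7 positions, Hist1h2ao and Hist1h2ap each at 5, and Hist1h2ak at 15. The H4 genes were further apart while encoding the same protein, as the same stretch shows with differences from Hist1h4d in capitals.
Hist1h4d: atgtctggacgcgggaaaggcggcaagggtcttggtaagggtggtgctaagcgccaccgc
Hist1h4m: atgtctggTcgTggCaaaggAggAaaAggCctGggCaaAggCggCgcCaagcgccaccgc
Hist1h4i: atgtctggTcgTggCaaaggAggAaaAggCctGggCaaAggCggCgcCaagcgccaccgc
Hist4h4: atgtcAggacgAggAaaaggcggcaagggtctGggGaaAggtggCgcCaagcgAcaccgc
Over the 312 coding bases, Hist1h4m was 93.6%, Hist1h4i 92.3% and Hist4h4 87.2% identical to Hist1h4d.

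Of the 68 genes, 26 were at the floor in all 6 libraries, which is 38.2%, beside 33.5% of all rows. Another 14 were above it in 1 or 2 libraries, 13 in 3 to 5, and 15 in all 6. Counting values of 1.5 or less as the floor gave 29 genes at it throughout. By histone, genes at the floor in every library were 0 of 6 for H1, 10 of 19 for H2A, 6 of 18 for H2B, 6 of 12 for H3 and 4 of 13 for H4. The number of the 68 genes above the floor was 23, 22 and 26 in DMP-777 replicates 1 to 3 and 30, 31 and 33 in L635 replicates 1 to 3, so that every L635 library detected more of them than every DMP-777 library. Over all genes the numbers were 12955, 11459 and 11848 with DMP-777 and 12264, 11513 and 12000 with L635, and these overlap. L635 replicate 2, with the lowest estimated depth, detected 31 of the histone genes, and L635 replicate 3, with the highest, detected 33. The part of depth in these numbers was not tested.

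**Figure D1:**
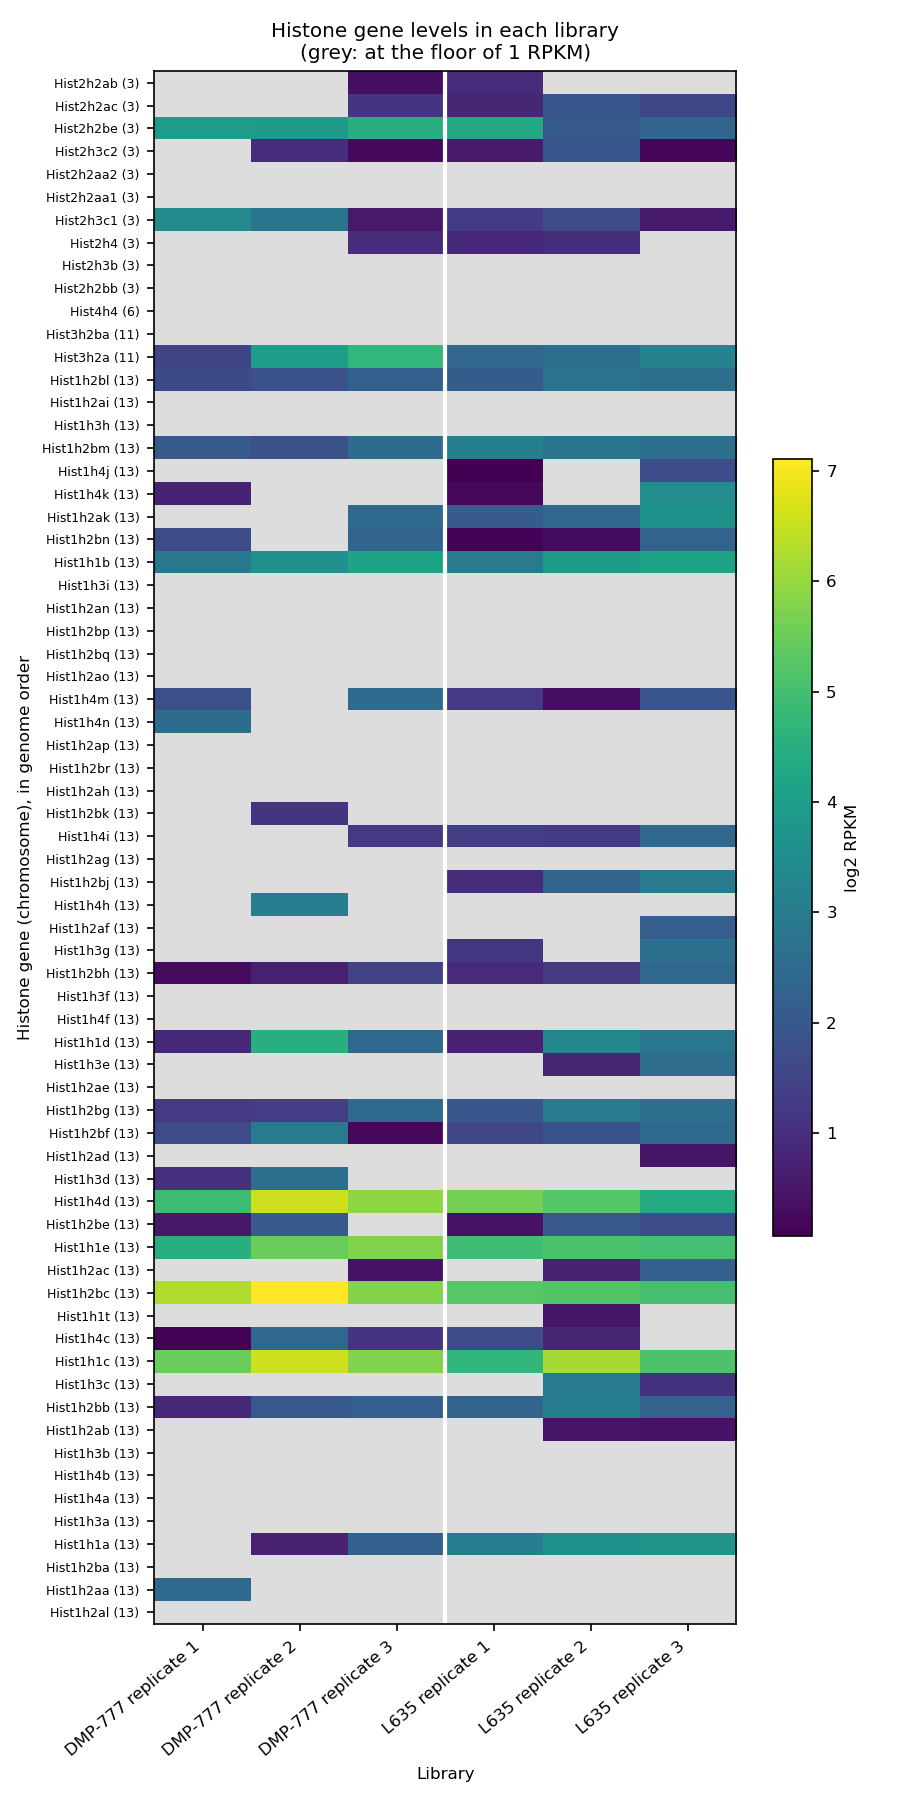
Level of each of the 68 histone genes (rows, in genome order with the chromosome in parentheses) in each of the 6 libraries (columns), as log2 RPKM in colour, with grey for a value at the floor of 1. Long grey runs are the 26 genes at the floor in every library, while Hist1h2bc, Hist1h1c, Hist1h4d and Hist1h1e are bright in all 6.

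Detection went with how distinct the annotated transcripts of a gene are. Uniqueness was measured as the share of a gene's 50-base windows, over its GENCODE transcripts, found in no transcript from another locus. Its median was 26.8% for the 26 genes at the floor throughout, 53% for those above it in 1 to 5 libraries and 81.2% for the 15 above it in all 6. The deposited spans of some genes are shorter than these transcripts, so their values may not cover the distinct part. Hist1h2bh, at 81.2%, has a deposited span of 436 bases against a transcript of 1679, and 31.6% of its coding windows are unique. Of 14 genes under 15% unique, 11 were at the floor in every library, among them Hist1h2ai, Hist1h2an, Hist1h2ao and Hist1h2ap. A distinct sequence did not guarantee a level: of 13 genes at least 90% unique, 6 were above the floor in all libraries and 2, Hist4h4 and Hist2h2bb, were at it in all. How the authors treated reads that match several copies is not stated in the labels, so the part of read assignment in the values at the floor was not tested.

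**Figure D2:**
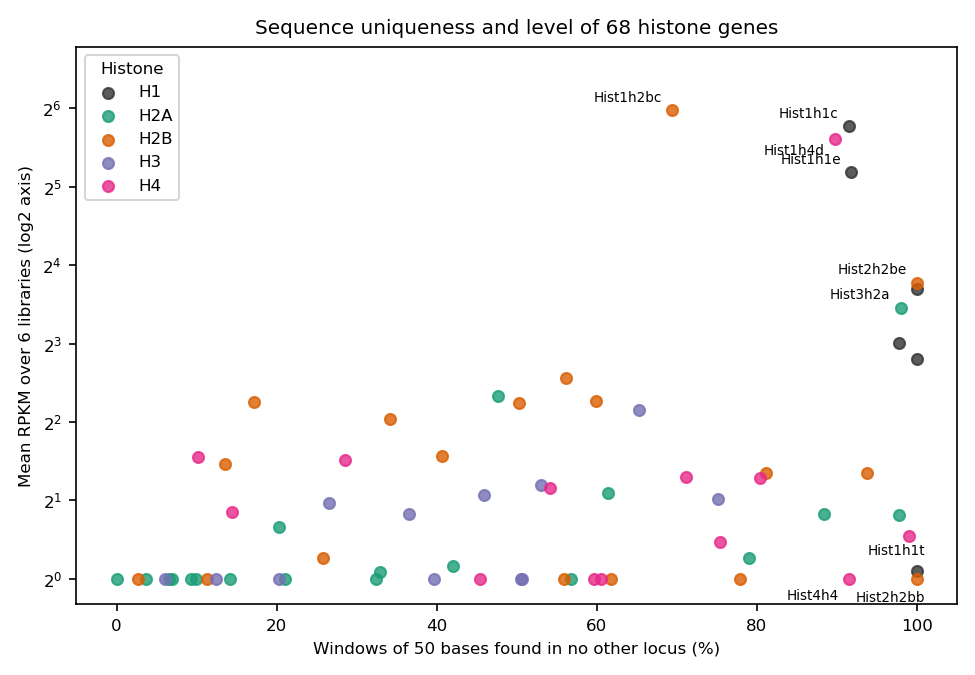
Share of 50-base windows found in no other locus (horizontal axis, %) against mean RPKM over 6 libraries (vertical axis, log2 scale) for 68 histone genes, coloured by histone. Genes under 20% unique lie below 5 RPKM, while genes above 80% unique run from the floor (Hist4h4) to means over 30 RPKM.

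The testis genes of the family served as a check of background. Hist1h1t, the linker histone of spermatocytes, was at the floor in 5 libraries and at 1.39 RPKM in L635 replicate 2. Hist1h2ba, the testis form of H2B, was at the floor in all 6. Hist1h2aa, the testis form of H2A beside it, was at 5.54 RPKM in DMP-777 replicate 1 and at the floor in the other 5. An isolated value of this size was therefore measured in a gene not known for expression in macrophages. Hist3h2ba, Hist4h4 and both copies of Hist2h2aa were at the floor throughout. The copies Hist2h2aa1 and Hist2h2aa2 have 0% and 3.7% unique windows.

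A few genes carried most of the summed level. The 5 genes with the highest mean, Hist1h2bc, Hist1h1c, Hist1h4d, Hist1h1e and Hist2h2be, made up 75%, 77.7% and 69.3% of the summed RPKM of the family in DMP-777 replicates 1 to 3 and 67.1%, 59% and 43.1% in L635 replicates 1 to 3. All L635 shares lay below all DMP-777 shares. The 5 genes were chosen by their mean over these same libraries, so a gene can enter through the treatment in which it is high. The difference in shares was therefore not tested. The family sum, over values above the floor, was 254, 498 and 357 RPKM with DMP-777 and 246, 311 and 292 RPKM with L635, and these ranges overlap. It was between 0.103% and 0.175% of the summed RPKM of all genes.

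With limma on log2(RPKM + 1), a moderated test with Benjamini-Hochberg adjustment over all 12102 genes tested, 0 of the 28 histone genes tested passed an adjusted p of 0.05, beside 0.0% of all genes. The smallest adjusted p was 0.406 among the histone genes and 0.308 among all genes. At an unadjusted p below 0.05 there were 4 of 28, or 14.3%, beside 10.1% of all genes. Of these 4, 3 were higher with L635, beside 3.78% of all genes that were higher at this p, and 1 was lower, beside 6.33%. The tested genes are those above the floor in at least 3 libraries, so the other 40 histone genes were not tested, and a gene can enter through the treatment in which it is high. Of the 28, 17 had a higher mean level with L635 and 11 a lower one, that is 60.7% higher beside 50.2% of all genes. Their median log2 fold change, L635 over DMP-777, was 0.24, beside 0.00 for all genes, with single genes from −1.20 to 1.99. This median was −0.25 among the 15 histone genes above the floor in all 6 libraries and −0.30 among the 11 with a mean above 5 RPKM, so its direction depends on the filter on low values. Intervals were wide: the 95% interval of a histone gene's log2 fold change reached a median of 0.99 to either side. In 5 genes every L635 value lay above every DMP-777 value, 17.9% of those tested beside 7.25% of all genes. In 1 gene every L635 value lay below, 3.57% beside 8.75%.

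As a class the linker histone genes are the most distinct of the family, at 91.5% to 100% unique windows, which lessens the doubt about copies. It is not removed: of the coding windows alone, 78.1% are unique in Hist1h1c, 73.6% in Hist1h1d and 74.6% in Hist1h1e. In GENCODE Hist1h1e also overlaps Hist1h2be, and windows shared with an overlapping gene were counted as unique. Hist1h1a (chr13:23763668-23764414), which encodes the subtype H1.1, had levels of 1, 1.65 and 4.73 RPKM in replicates 1 to 3 of DMP-777 and of 8.59, 12.9 and 13.2 RPKM in those of L635. Every L635 library was above every DMP-777 library. The means were 2.46 ± 1.99 and 11.5 ± 2.56 RPKM (SD, n = 3), a log2 fold change of 1.99 ± 0.50 (SE), and the adjusted p from limma was 0.406. This was the smallest p of the family. Hist1h1c, for H1.2, a subtype common in non-dividing tissue, stood at 45.0, 94.4 and 55.1 RPKM with DMP-777 and at 25.9, 71.5 and 35.3 RPKM with L635. The groups overlapped, and its log2 fold change was −0.60 ± 0.40 (SE; adjusted p = 0.625, limma). It was −0.24 under quantile normalization, −0.29 when L635 replicate 1 was left out, −0.30 when DMP-777 replicate 2 was and −1.0 when L635 replicate 2 was.

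The other H1 genes showed no separation. Hist1h1e, for H1.4, stood at 22.8, 45.0 and 54.5 RPKM with DMP-777 and at 30.5, 33.7 and 32.0 RPKM with L635, with the 3 L635 libraries inside the DMP-777 range. Hist1h1b, for H1.5, stood at 7.55, 12.3 and 17.9 RPKM with DMP-777 and at 7.71, 14.9 and 17.7 RPKM with L635, which is nearly the same spread, and the 95% interval of its log2 difference ran from −0.83 to 1.01. Hist1h1d, for H1.3, varied most between replicates, at 1.85, 22.5 and 5.37 RPKM with DMP-777 and 1.65, 9.62 and 7.12 RPKM with L635. Against these subtypes stands H1f0, a replication-independent H1 gene outside the clusters with a polyadenylated messenger RNA. It was at 91.2, 79.6 and 83.8 RPKM with DMP-777 and at 62.4, 40 and 63.5 RPKM with L635. All its L635 values were below all DMP-777 values, with a log2 fold change of −0.64 ± 0.29 (SE; adjusted p = 0.494, limma).

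Among the H2B genes a few members held the level. Hist1h2bc (chr13:23684199-23692488), the most abundant gene of the family, stood at 77.6, 137.5 and 54.7 RPKM with DMP-777 and at 39.0, 36.3 and 32.7 RPKM with L635. All L635 values lay below all DMP-777 values, and they were close to each other while the DMP-777 values were spread. The means were 89.9 ± 42.8 and 36.0 ± 3.17 RPKM (SD, n = 3), a log2 fold change of −1.20 ± 0.34 (SE), and the adjusted p from limma was 0.406. Only 2.4% of its coding windows are unique, against 69.4% over its transcripts, so most of what distinguishes it lies outside the coding part. Its deposited gene span of 8290 bases is also longer than its GENCODE transcript of 1156 bases. Hist2h2be (chr3:96221121-96223738), whose windows are 100% unique, stood at 15.4, 15 and 22.5 RPKM with DMP-777 and at 19.8, 4.20 and 5.14 RPKM with L635. L635 replicate 1 lay inside the DMP-777 range and the other two far below it, with a log2 fold change of −1.07 ± 0.50 (SE; adjusted p = 0.496, limma) that became −1.70 without L635 replicate 1 and −0.70 without L635 replicate 2.

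In 3 further H2B genes every L635 value lay above every DMP-777 value. Hist1h2bj (chr13:22043214-22043676) was at the floor in all DMP-777 libraries and at 1.98, 5.06 and 7.64 RPKM in L635 replicates 1 to 3. It was thus detected with L635 and not with DMP-777, and it could be tested only through its L635 values. Its log2 fold change, held down by the floor and the added 1, was 1.43 ± 0.45 (SE; adjusted p = 0.413, limma). Hist1h2bm stood at 4.16, 3.53 and 5.82 RPKM with DMP-777 and at 8.61, 6.88 and 6.4 RPKM with L635, and Hist1h2bb at 1.84, 4.12 and 4.48 against 5.13, 8.49 and 4.89 RPKM. In both genes the groups did not overlap, by a narrow margin, and the log2 fold changes were 0.61 and 0.70 (limma adjusted p = 0.649 and 0.626). The remaining tested H2B genes, Hist1h2bl, Hist1h2bn, Hist1h2bh, Hist1h2bg, Hist1h2bf and Hist1h2be, had means from 2.54 to 4.79 RPKM, and in all of them the groups overlapped. Hist1h2be overlaps Hist1h1e in GENCODE, though not in the deposited spans. The deposited span of Hist1h2be is 37383 bases, so its value is uncertain.

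**Figure D3:**
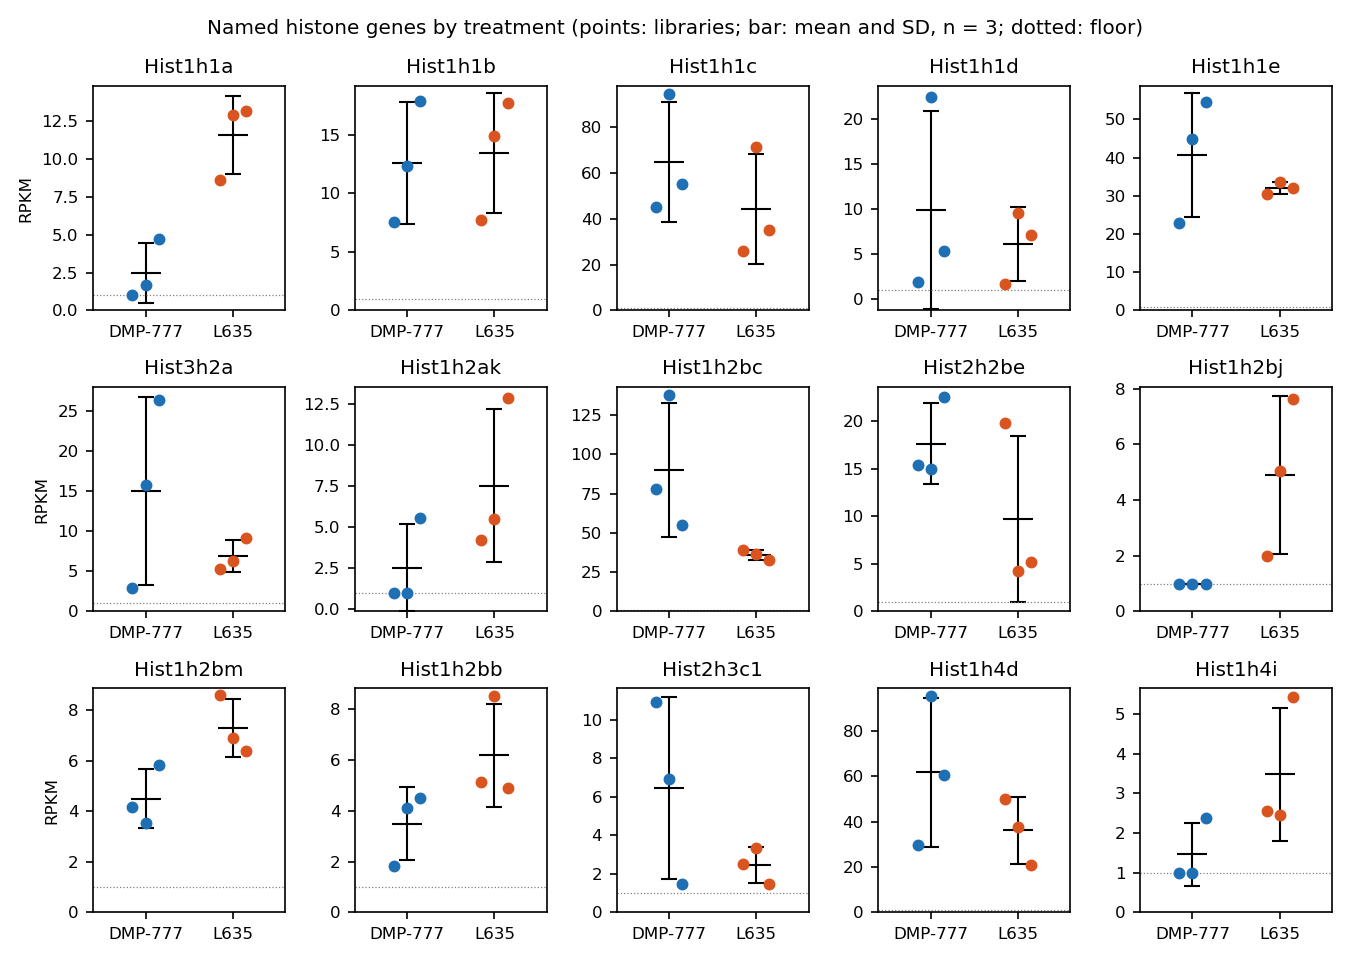
RPKM of 15 named histone genes in each library (points; blue for DMP-777, orange for L635), with the mean and SD of 3 libraries in black and the floor of 1 dotted. The groups separate in Hist1h1a, Hist1h2bj, Hist1h2bm, Hist1h2bb and Hist1h4i, with L635 above, and in Hist1h2bc, with L635 below.

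Few H2A genes were detected, and 4 of 19 were tested. Hist3h2a (chr11:58954685-58956674), which encodes an H2A form and overlaps Trim17, stood at 2.89, 15.8 and 26.4 RPKM with DMP-777 and at 5.25, 6.27 and 9.16 RPKM with L635. The DMP-777 libraries spanned the L635 range on both sides. Hist1h2ak was at the floor in DMP-777 replicates 1 and 2, at 5.59 RPKM in replicate 3, and at 4.24, 5.48 and 12.9 RPKM with L635. The groups overlapped through DMP-777 replicate 3, and the log2 fold change was 1.39 ± 0.58 (SE; adjusted p = 0.451, limma). Hist2h2ac and Hist1h2ac stayed below 5 RPKM in every library.

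Among the H4 genes most of the level came from Hist1h4d in 5 of 6 libraries. This gene (chr13:23581598-23581990) stood at 29.5, 95.1 and 60.6 RPKM with DMP-777 and at 49.9, 37.7 and 20.7 RPKM with L635. The groups overlapped, with a log2 fold change of −0.69 ± 0.43 (SE; adjusted p = 0.600, limma). Leaving out DMP-777 replicate 2 gave −0.31, L635 replicate 3 gave −0.35 and DMP-777 replicate 1 gave −1.14. It held 71% to 87.4% of the summed H4 level in those libraries and 46.4% in L635 replicate 3, where Hist1h4k reached 11.4 RPKM against at most 1.67 RPKM elsewhere. All these genes make the same protein. Its deposited span is 393 bases against a GENCODE transcript of 1138, and 57.8% of its coding windows are unique. Hist1h4i stood at 1, 1 and 2.39 RPKM with DMP-777 and at 2.56, 2.46 and 5.42 RPKM with L635, which did not overlap (log2 fold change 0.85 ± 0.42 SE; adjusted p = 0.509, limma). Hist2h3c1, the H3 gene with the highest mean, stood at 10.9, 6.93 and 1.49 RPKM with DMP-777 and at 2.51, 3.34 and 1.49 RPKM with L635, and DMP-777 replicate 3 equalled the lowest L635 value. None of its coding windows is unique, against 65.3% over its transcripts.

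The family also divides by the annotated length of transcript behind the stop codon, a property of the annotation and not of these values. In the models used, 17 genes have over 700 bases there and 51 have 503 or fewer. The limit of 700 was set after the values had been seen, in the gap between Hist1h4c and Hist1h2bc, and no test is given for the division. Hist1h2bc, at 742 bases, is the long-end gene nearest the limit and the most abundant gene of the family. It stood at 77.6, 137.5 and 54.7 RPKM with DMP-777 and at 39.0, 36.3 and 32.7 RPKM with L635. Both sets of sums below therefore depend on the side of the limit on which this gene falls. The deposited spans of some long-end genes are shorter than these models. They are 393 bases against 1138 for Hist1h4d, 748 against 1930 for Hist1h1e and 436 against 1679 for Hist1h2bh. The values of such genes may therefore not cover the long end. The 17 genes with long ends, which include Hist1h2bc, Hist1h1c, Hist1h4d, Hist1h1e, Hist2h2be and Hist3h2a, summed to 211, 444 and 287 RPKM in DMP-777 replicates 1 to 3 and to 180, 213 and 157 RPKM in L635 replicates 1 to 3. The L635 sums were lower in all but 1 pairing of libraries, L635 replicate 2 with DMP-777 replicate 1. The 51 genes with shorter ends summed to 43.1, 53.6 and 70.0 RPKM with DMP-777 and to 66.4, 98.1 and 135 RPKM with L635. Here the L635 sums were higher in all but the pairing of L635 replicate 1 with DMP-777 replicate 3. The long-end genes are also the more abundant and more distinct ones, with a median of 91.5% unique windows against 42%, so these properties cannot be told apart.

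**Figure D4:**
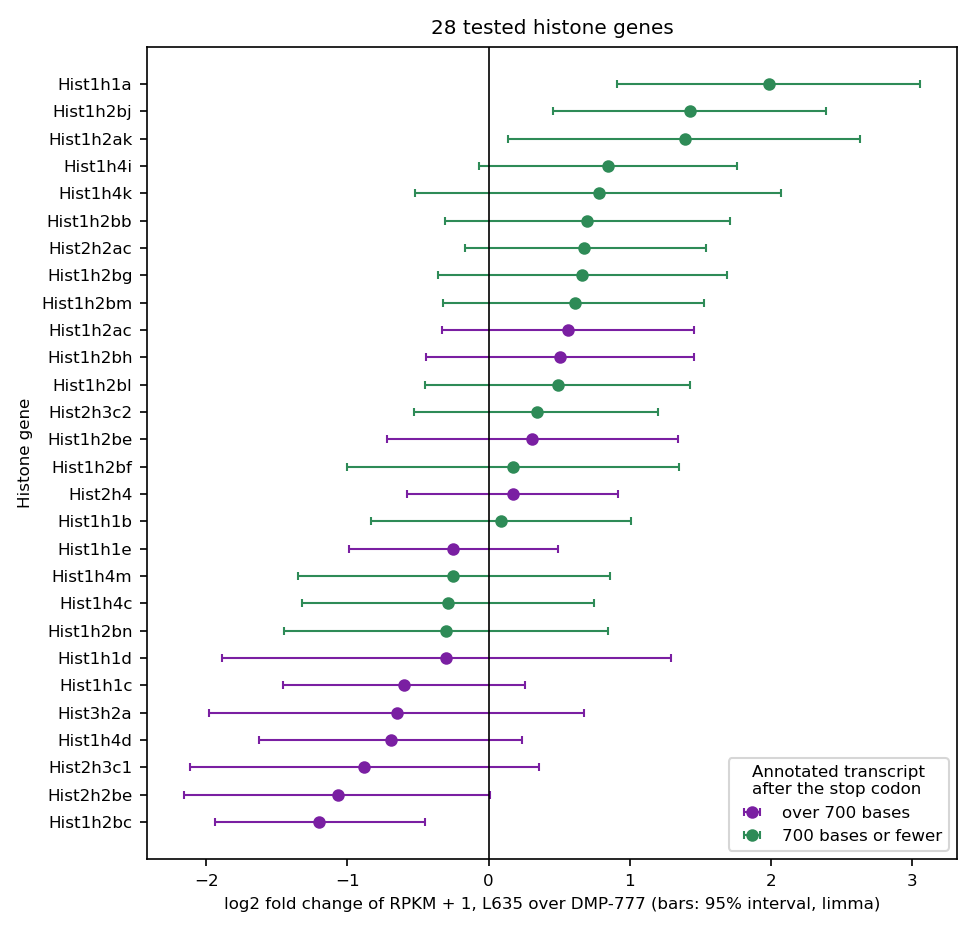
log2 fold change of RPKM + 1, L635 over DMP-777, of the 28 tested histone genes (points) with the 95% interval from limma (bars), ordered by size. Purple marks genes with over 700 annotated bases after the stop codon and green the others. The values run from −1.20 for Hist1h2bc to 1.99 for Hist1h1a, and 24 of the 28 intervals cross 0.

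Many H2A and H2B genes lie back to back and share the stretch between them as promoter. There were 13 neighbouring pairs that start within 1000 bases of each other and run apart, 12 of them an H2A gene with an H2B gene, separated by 167 to 305 bases. Within the 12, the H2B gene had the higher mean in 7 pairs and the H2A gene in 2, and both were at the floor in 3. A single library gave the higher mean of Hist1h2bk over Hist1h2ah and of Hist1h2aa over Hist1h2ba. Within the 7, the H2A gene was the less unique one for Hist1h2ai, Hist1h2ah, Hist1h2ag, Hist1h2ad and Hist2h2ac. It was the more unique one for Hist1h2ae and Hist1h2ac. The most uneven pair was Hist1h2bc with a mean of 62.9 RPKM and Hist1h2ac with 1.78 RPKM over 6 libraries, at 69.4% and 88.4% unique windows. In the pair of Hist2h2be and Hist2h2ac the means were 13.7 and 2.13 RPKM. A letter search of the 250 bases before the start, in the RefSeq promoter table for GRCm38.p6, could be made for 62 of the 68 genes. The CCAAT box, CCAAT on either strand, was present in all 6 H1, all 18 H2A and all 16 H2B promoters, in 8 of 10 H3 and in 3 of 12 H4 promoters, against 33.8% of 32851 promoters. The TATA box, TATAAA on either strand, was in 46.8% of the 62 against 12.4% of all. The octamer core, TTTGCAT on either strand, was in 7 of 18 H2A, 6 of 16 H2B and 1 of 12 H4 promoters and in no H1 or H3 promoter, against 4.12% of all. Each motif was searched on its own, so matches may overlap. The promoters shared by the 2 uneven pairs, and those of the 2 genes with the largest positive fold changes, follow with every match in capitals, 5′ to 3′ on the strand of the named gene. A match is a string of letters and not a measured binding site.
Hist1h2ac, chr13:23683960-23684209, minus strand: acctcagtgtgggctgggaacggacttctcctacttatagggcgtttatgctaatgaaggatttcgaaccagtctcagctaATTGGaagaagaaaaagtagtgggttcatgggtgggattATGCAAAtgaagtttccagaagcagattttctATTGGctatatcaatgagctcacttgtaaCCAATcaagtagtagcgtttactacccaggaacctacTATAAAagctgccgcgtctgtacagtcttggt
Hist2h2ac, chr3:96220881-96221130, minus strand: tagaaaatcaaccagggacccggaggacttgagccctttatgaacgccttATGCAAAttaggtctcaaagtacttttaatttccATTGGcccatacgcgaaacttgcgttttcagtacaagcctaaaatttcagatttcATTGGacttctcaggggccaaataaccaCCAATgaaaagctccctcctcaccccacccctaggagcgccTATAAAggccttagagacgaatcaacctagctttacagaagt
Hist1h1a, chr13:23763418-23763667, plus strand: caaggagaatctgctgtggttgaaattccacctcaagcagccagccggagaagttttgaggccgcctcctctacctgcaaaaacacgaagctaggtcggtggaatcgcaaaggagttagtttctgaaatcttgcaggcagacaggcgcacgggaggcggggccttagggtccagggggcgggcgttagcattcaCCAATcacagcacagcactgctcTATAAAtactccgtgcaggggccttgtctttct
Hist1h2bj, chr13:22042948-22043197, plus strand: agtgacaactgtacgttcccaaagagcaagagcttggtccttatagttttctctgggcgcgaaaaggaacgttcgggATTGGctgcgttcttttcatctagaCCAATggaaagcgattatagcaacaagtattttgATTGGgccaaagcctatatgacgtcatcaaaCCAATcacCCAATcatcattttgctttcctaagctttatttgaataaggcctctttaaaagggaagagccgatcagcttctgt
The stretch before Hist1h2ac, nearly all of which also lies before Hist1h2bc on the other strand, holds all 3 motifs, as does that of Hist2h2ac. Hist1h1a has a TATA box and a CCAAT box, and Hist1h2bj has CCAAT boxes alone.

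Of the machinery that makes and ends histone messages, 0 of 17 tested genes passed the threshold in limma, with 1 at an unadjusted p below 0.05, beside 10.1% of all genes. With L635, 10 of these were higher and 7 lower, beside 50.2% of all genes higher, and their log2 fold changes had a median of 0.03. Slbp, the stem-loop binding protein, stood at 7.58, 14.8 and 26.5 RPKM with DMP-777 and at 13.6, 11.4 and 12.7 RPKM with L635, all inside the DMP-777 range. Npat, the coactivator of histone genes at their nuclear bodies, stood at 3.57, 1.44 and 2.78 RPKM with DMP-777 and at 4.42, 5.79 and 6.79 RPKM with L635, which did not overlap (log2 fold change 0.92 ± 0.45 SE; adjusted p = 0.501, limma). Lsm10, a subunit of the U7 particle, went the other way, at 18.3, 36.7 and 24.0 RPKM against 16.6, 10.7 and 7.20 RPKM (log2 fold change −1.14 ± 0.39 SE; adjusted p = 0.415, limma). Casp8ap2, also called FLASH, a partner of the U7 particle, overlapped between groups, with a log2 fold change of 0.66 ± 0.61 (SE). Ccne2, the cyclin E2 that acts on Npat through Cdk2, had a log2 fold change of 0.97 ± 0.46 (SE; adjusted p = 0.497, limma).

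The histone genes outside the clusters, listed here as replication-independent, had a higher summed RPKM than the clustered genes in every library. Of the 68 clustered genes, 61 share windows with another of them, and values at the floor were left out of both sums. The part of read assignment, priming and the floor in this order was not tested. The 15 replication-independent rows summed to 445, 577 and 512 RPKM in DMP-777 replicates 1 to 3 and to 405, 392 and 364 RPKM in L635 replicates 1 to 3, without overlap. H2afz, H3f3b and H1f0 led these sums, while H1fx, H1foo and Hils1 were at the floor throughout. Of 9 tested, 3 were higher and 6 lower with L635, the median log2 fold change was −0.35, and 0 had an adjusted or unadjusted limma p below 0.05. H2afz, the gene of H2A.Z, stood at 175.6, 230.9 and 200.3 RPKM with DMP-777 and at 138, 155 and 92.5 RPKM with L635 (log2 fold change −0.67 ± 0.32 SE; adjusted p = 0.5, limma). H3f3b, a gene of the replacement histone H3.3, was level, at 103 ± 18.9 and 104 ± 17.1 RPKM (SD, n = 3), and its other gene H3f3a was at 27.5 ± 4.47 and 22.2 ± 1.79 RPKM (SD, n = 3). H2afx, the H2A form phosphorylated at DNA breaks, varied from 6.73 to 38.5 RPKM with DMP-777 and from 7.89 to 20.4 RPKM with L635. Cenpa, the H3 form of centromeres, had a log2 fold change of −0.43 ± 0.40 (SE).

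Genes of the cell cycle did not move as a block. Of 31 tested genes of DNA replication and S phase, 20 were higher with L635 and 11 lower, with 0 past the threshold, 1 at an unadjusted p below 0.05 and a median log2 fold change of 0.19, beside 50.2% higher and 10.1% at this p over all genes. Pcna, the replication clamp, stood at 73.9 ± 4.92 RPKM with DMP-777 and 56.9 ± 2.25 RPKM with L635 (SD, n = 3), without overlap and lower with L635. Pola1, the catalytic subunit of DNA polymerase alpha, was at the floor in every DMP-777 library and at 1.68, 3.15 and 5.16 RPKM with L635, and Pole, of DNA polymerase epsilon, was likewise at the floor and at 1.65, 1.6 and 3.82 RPKM. Mcm6 of the replicative helicase had a log2 fold change of 0.72 ± 0.41 (SE). Of 20 tested mitosis genes, 12 were higher and 8 lower, 0 past the threshold in limma and 4 at an unadjusted p below 0.05, with a median of 0.12, beside the same shares over all genes. Mki67, a marker of cycling cells, stood at 15.1, 3.96 and 5.95 RPKM with DMP-777 and at 7.62, 23.2 and 68.3 RPKM with L635. Top2a was at 6.96 ± 2.69 and 17.1 ± 9.51 RPKM and Cenpf at 1.28 ± 0.253 and 6.4 ± 6.88 RPKM (SD, n = 3), while Ube2c was lower with L635, at 47.0 ± 10.5 and 24.9 ± 2.98 RPKM.

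L635 replicate 3 combined the highest Mki67 level with the highest sum of the shorter-end histone genes, 135 RPKM, and with the greatest estimated depth. Without it the median log2 fold change of the 28 histone genes was 0.05 and that of Hist1h2bj was 1.09 in place of 1.43. The summed level of surface mucous markers, Hist1h2bc and the replication-independent sum were each lower in every L635 library than in every DMP-777 library, though their order among the DMP-777 libraries differed, and the part of the mucous RNA in these differences was not tested. Among the 22 tested histone chaperone genes 16 were higher with L635 and 6 lower, with 0 past the threshold, 3 at an unadjusted p below 0.05 and a median of 0.27, beside 50.2% higher and 10.1% at this p over all genes. Those 3 did not overlap between groups, with L635 above, as in 7.25% of all genes: Chaf1a, a subunit of the factor that deposits new histones behind the replication fork, at 1.33 ± 0.575 and 4.24 ± 2.14 RPKM, Ssrp1 of the FACT complex at 18.1 ± 3.08 and 32.1 ± 7.00 RPKM, and Ubn1 of the H3.3 chaperone HIRA at 4.96 ± 2.90 and 11.4 ± 0.482 RPKM (SD, n = 3). Their limma adjusted p-values were 0.438, 0.439 and 0.435. Chaf1a was at the floor in DMP-777 replicates 1 and 2. Outside these 3 chaperone genes, Nap1l1 also lay above with L635 without overlap. Asf1b lay below, as 8.75% of all genes did, at 6.77, 4.66 and 7.38 RPKM with DMP-777 and 3.23, 1.35 and 4.44 RPKM with L635.

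**Figure D5:**
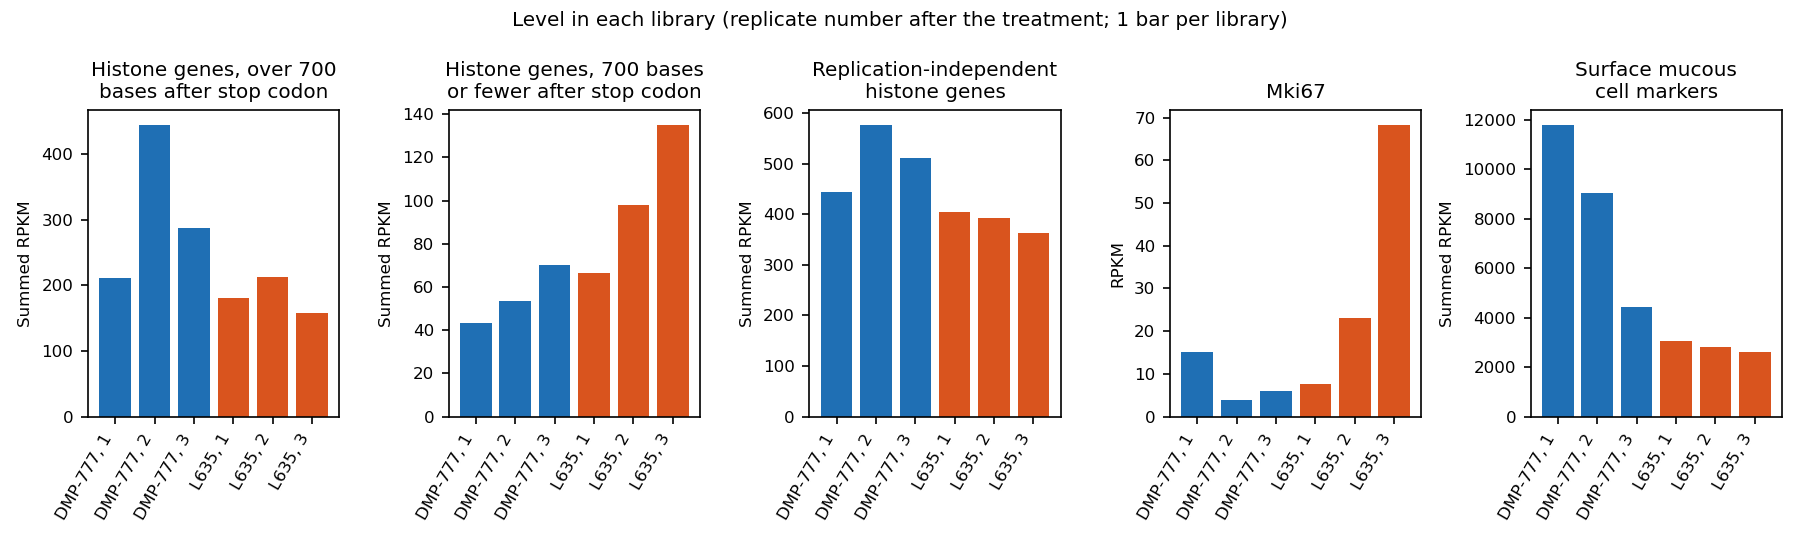
Level in each library (1 bar each; blue for DMP-777, orange for L635) of the 17 long-end and 51 shorter-end histone genes, the replication-independent histone genes, Mki67 and the surface mucous markers, as RPKM or summed RPKM over values above the floor. L635 replicate 3 is highest for the shorter-end genes and Mki67, and the mucous sums with DMP-777 exceed those with L635.

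The genes most like the histone family were sought among 9068 genes above the floor in all 6 libraries, with the histone genes themselves and predicted or clone-named genes left out, by Pearson correlation with the mean log2 level of the 28 tested histone genes. That mean was 2.23, 2.69 and 2.75 in DMP-777 replicates 1 to 3 and 2.49, 2.80 and 2.94 in L635 replicates 1 to 3. The 5 highest were Ireb2 (r = 0.983), Eri1 (0.973), Rprd1a (0.972), Nfkbid (0.970) and Ankfy1 (0.967). With 6 libraries and this many genes compared, these values are a description of these libraries, which share their depths. Eri1, the exonuclease that trims the histone stem-loop end, was on the list of histone message genes already and stood at 6.43, 11.7 and 16.4 RPKM with DMP-777 and at 10.2, 14.6 and 18.1 RPKM with L635.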

How the data were processed

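RNA of F4/80-sorted mouse stomach macrophages was amplified with the NuGEN Ovation V2 kit and sequenced as single-end reads, per the labels' protocols. FastQC, TopHat 1.4, SAMtools and mm9 are named in the submitters' processing notes; how reads were counted, on which annotation and with what use of strand, is not given in the sources used here. A table deposited by the authors holds the RPKM values, a unit recognised here from steps in the values, with a floor of 1. Only part of the low values fell on whole reads, so no count test was run. Of the columns with values per library, 0 were unused.

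Groups came from the sample titles, and replicates were numbered 1 to 3 in accession order. Tests used limma 3.58.1 in R 4.3.3 on log2(RPKM + 1), with a mean-variance trend, two-sided, on genes above 1 in at least 3 libraries. The pseudocount and floor understate changes of low genes. The 68 genes, the lists and the tests were chosen with earlier results of these data known. Named are the 12 histone genes with the highest mean, the 4 with the smallest p in each direction, a fixed set of 10, and from each list the 3 genes with the smallest p and a fixed set of 11.

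Rows were matched to GENCODE M21 (GRCm38) by identifier, or by symbol where the identifier is absent there, as in 7 histone genes. Of the 68 histone genes, 66 overlap the gene they were matched to, so coordinates are given as GRCm38 although mm9 is named. Hist2h2aa1 and Hist2h2aa2 carry each other's identifiers there, Hist1h2al is annotated as a pseudogene, and the identifier of Hist2h2bb belongs to a gene of another name. Transcript features are those of the longest protein-coding transcript. Promoters are RefSeq's. The fit was tested on simulated data. Alternatives covered pseudocount, filter, scaling, trend, weights, length and GC content, summed copies and each library left out.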

Additional observations from a re-analysis of the deposited data

How the results depend on the processing

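No histone gene, and no gene at all, passed an adjusted p of 0.05 in limma under any of the alternatives run. Hist1h1a, Hist1h2bc and Hist1h2bj had an unadjusted p below 0.05 in limma in every alternative in which each was tested as a gene of its own. Hist1h2bj, at the floor in all DMP-777 libraries, was not tested under the filters that remove the low genes. The number of histone genes at an unadjusted p below 0.05, 4 of 28, became 2 of 15 among genes above 1 in all 6 libraries, 2 of 11 at a mean above 5, and 9 of 28 once a trend on length and GC content was removed, where 9.13% of all genes reached it. It was 2 of 20 among genes at least 50% unique, an alternative chosen after seeing the data, and 3 to 6 with a library left out. The median log2 fold change of 0.24 became −0.25 among genes above 1 in all 6 libraries and −0.30 at a mean above 5, filters that remove the low genes, and 0.05 to 0.47 with a library left out, lowest without L635 replicate 3. Summing copies of the same predicted protein gave 0.29 and 3 genes. Over 15 named histone genes and 17 alternatives, 235 of 242 values kept their direction. Leaving out a library moved Hist1h1b between −0.21 and 0.42, below 0 without DMP-777 replicate 1 (−0.21), L635 replicate 3 (−0.13) or L635 replicate 2 (−0.01). It moved Hist1h1d between −1.0 and 0.52, above 0 without DMP-777 replicate 2 (0.52) or L635 replicate 1 (0.30). Hist1h1e changed to 0.01 under quantile normalization and 0.00 with the length and GC trend removed. The difference in genes above the floor, L635 minus DMP-777, was −161.7, and leaving out a library gave −475.8 to 272.2, the value being 44.7 if L635 replicate 2 was left out and 272.2 if DMP-777 replicate 1 was. The cause of these changes was not tested. No paired analysis was possible because no samples of different treatments share a replicate number in the labels. The depth limits the low genes most, since 1 RPKM of a short histone gene is 1.6 to 8 reads by the estimated depths.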
